A study of Mus musculus with 16 samples.

Results

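Of 49452 genes measured in tdTomato-labeled mouse lung cells, 9 genes of the S100, annexin and galectin families are described here: *S100a4*, *S100a6*, *S100a10*, *S100a11*, *Anxa1*, *Anxa2*, *Anxa3*, *Anxa5* and *Lgals1*. They were chosen by name with their levels in the 4 groups already known, so the differences between groups given for them are descriptions and not tests. The cells came from 16 mice, 4 in each group, that carried a tamoxifen-inducible Cre under the *Acta2* promoter (*Acta2-tdT*) or the *Pdgfra* promoter (*Pdgfra-tdT*) and a floxed tdTomato reporter. *Acta2* encodes α-smooth muscle actin (αSMA) and *Pdgfra* a growth factor receptor of fibroblasts. Mice of both lines received saline or bleomycin, an agent that injures the lung and leads to fibrosis, and their lungs were collected 14 days later, at 11 weeks of age. *Acta2-tdT* mice ate food with 400 mg/kg tamoxifen from day 5 after instillation, whereas *Pdgfra-tdT* mice had 5 injections of 3 mg tamoxifen at 6 weeks of age, so line and time of labeling cannot be told apart. Sorted positive cells of each mouse were lysed together, so a cell type that became rarer and one that made less RNA cannot be told apart either.

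S100 proteins are small EF-hand proteins, most of which change shape when they bind calcium (S100A10 is an exception that no longer binds it), and annexins are larger proteins that bind acidic membrane phospholipids when calcium is present. The families meet in the complex of S100A10 with annexin A2, which sits under the plasma membrane and binds plasminogen and its activator, and in similar pairs of S100A11 with annexin A1 and of S100A6 with several annexins. Galectin-1 is a secreted lectin that binds β-galactosides on cell surface and matrix glycoproteins. In the lung *S100a4* has long been used as a fibroblast marker, although macrophages express it too, and several of the other genes are common to fibroblasts, smooth muscle, endothelium, epithelium and leukocytes.

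Of the 9 genes, 5 lie on chromosome 3 of the mouse build GRCm38. *S100a4* (90603771 to 90606045) and *S100a6* (90612882 to 90614414) lie 6836 bp apart in the cluster of S100 genes, with *S100a5* between them, and *S100a11* (93520488 to 93526287) and *S100a10* (93555080 to 93564643) lie 28792 bp apart. *Anxa5* (36448923 to 36475894) lies elsewhere on the same chromosome. *Anxa3* (96793385 to 96845966) is on chromosome 5, *Anxa2* (69453620 to 69491795) on chromosome 9, *Lgals1* (78926725 to 78930465) on chromosome 15 and *Anxa1* (20373428 to 20390944) on chromosome 19. Each value below covers the whole gene, exons of all its transcripts. *Anxa2* overlaps the antisense gene *Gm16144*, and *Anxa5* overlaps a microRNA gene listed at up to 457 FPKM, so reads of these pairs could have been shared.

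The 250 bases upstream of the RefSeq start are given below for *S100a4* and *S100a6* of the S100 cluster, for *S100a11*, which held AP-1 motifs at 2 positions, and for *Anxa1*, which had the largest interaction of line and bleomycin of the 9 genes. The RefSeq starts differ from the gene coordinates above, so the *Anxa1* window lies wholly inside the gene as listed there, and the last bases of the *S100a6* and *S100a11* windows do too. The sequences are from RefSeq (GRCm38.p6), in which 6 of the 9 genes had an entry (*S100a4*, *S100a6*, *S100a11*, *Anxa1*, *Anxa2* and *Anxa5*), and run 5′ to 3′ toward the gene, with the motifs found on either strand in capitals.
S100a4, chr3:90603520-90603769, plus strand: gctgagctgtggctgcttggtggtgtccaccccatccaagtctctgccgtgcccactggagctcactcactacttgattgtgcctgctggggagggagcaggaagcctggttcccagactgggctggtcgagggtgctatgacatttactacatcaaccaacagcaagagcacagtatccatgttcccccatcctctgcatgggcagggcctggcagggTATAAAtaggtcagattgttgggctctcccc
S100a6, chr3:90612644-90612893, plus strand: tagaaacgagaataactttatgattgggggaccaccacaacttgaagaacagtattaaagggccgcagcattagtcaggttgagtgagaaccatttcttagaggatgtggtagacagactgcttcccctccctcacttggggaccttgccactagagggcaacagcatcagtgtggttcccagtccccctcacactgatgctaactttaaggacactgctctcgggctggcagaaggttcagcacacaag
S100a11, chr3:93520246-93520495, plus strand: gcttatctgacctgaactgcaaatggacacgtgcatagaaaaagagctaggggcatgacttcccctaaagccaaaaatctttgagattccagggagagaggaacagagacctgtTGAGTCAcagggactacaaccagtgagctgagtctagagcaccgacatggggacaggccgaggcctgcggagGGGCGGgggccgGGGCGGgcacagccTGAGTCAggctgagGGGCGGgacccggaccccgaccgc
Anxa1, chr19:20390672-20390921, minus strand: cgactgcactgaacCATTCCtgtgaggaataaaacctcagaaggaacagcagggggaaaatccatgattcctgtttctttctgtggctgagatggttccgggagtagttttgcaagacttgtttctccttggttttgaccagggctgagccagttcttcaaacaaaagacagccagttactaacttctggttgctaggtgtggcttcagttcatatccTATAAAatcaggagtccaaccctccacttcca

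The motifs searched on both strands were the AP-1 motif (TGANTCA), the TEAD motif (GGAATG), the GC box (GGGCGG), the TATA box (TATAAA) and the CArG box. AP-1 motifs stood at -136 and -38 of *S100a11*, counted from -1 for the last base shown, and at -95 of *Anxa2*, and 6.13% of 21262 mouse promoters of this length held one. The TATA box was present in *S100a4* at -31, *Anxa1* at -32 and *Anxa2* at -17, against 11.6% of all promoters, and was not in the window of *S100a6*. *S100a11* and *Anxa2* each held 3 GC boxes (42.6% of all promoters held one or more), and *Anxa1* held a TEAD motif in reverse at -236 (11.7%). No CArG box, the motif bound by serum response factor at smooth muscle genes, was found in the 6 windows (1.39% of all promoters). These matches are descriptions of letters and say nothing of binding.

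Levels are given in FPKM, the sequenced fragments of a gene divided by the length of its transcripts and by the mapped fragments of the library. The total FPKM of nuclear protein-coding genes was not equal between groups. It ranged from 35602 to 57788 in *Acta2-tdT* saline, 231058 to 463127 in *Acta2-tdT* bleomycin, 29964 to 59840 in *Pdgfra-tdT* saline and 28512 to 137952 in *Pdgfra-tdT* bleomycin. Each level is therefore given as deposited and also scaled, so that these genes sum to the same 74406 FPKM in every mouse. *Acta2* itself was listed at 139 to 314 FPKM in *Acta2-tdT* saline and 1229 to 3211 FPKM with bleomycin, against 0.831 to 19.4 FPKM in the *Pdgfra-tdT* mice. *Pdgfra* was low in all mice, at 2.14 to 3.82 FPKM in *Pdgfra-tdT* saline, 0.977 to 2.45 in *Pdgfra-tdT* bleomycin and 2.49 to 11.9 in *Acta2-tdT* bleomycin. In *Acta2-tdT* saline it was lower still, at 0.273 to 0.562 FPKM, below every *Pdgfra-tdT* saline mouse. Other fibroblast genes were also low in the *Pdgfra-tdT* cells, where *Tcf21* was below 1 FPKM and *Col1a1*, *Col1a2* and *Col3a1* at no more than 19.2 FPKM in every mouse, and *Dcn* reached 96.2 FPKM.

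Libraries also held RNA of other cells. The summed FPKM of 10 macrophage and monocyte markers was 99.0 to 332 in *Acta2-tdT* saline, 1787 to 7325 in *Acta2-tdT* bleomycin, 35.1 to 85.6 in *Pdgfra-tdT* saline and 392 to 3307 in *Pdgfra-tdT* bleomycin. The 6 neutrophil markers summed to 741 to 1481 FPKM and 1156 to 5711 FPKM in the *Acta2-tdT* groups and to 8.03 to 146 FPKM in *Pdgfra-tdT* mice, and the 6 epithelial markers summed to 25.8 to 1529 FPKM over all mice. Lymphocyte markers summed to at most 9.35 FPKM. *Pdgfra-tdT* saline mouse 3 and *Pdgfra-tdT* bleomycin mouse 5 stood apart by their 6 endothelial markers, which summed to 333 and 875 FPKM, whereas the other *Pdgfra-tdT* mice had 3.79 to 89.8 FPKM and the *Acta2-tdT* mice 5.84 to 24.8 FPKM.

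In *Acta2-tdT* cells all 9 genes were higher after bleomycin as deposited, by 9.92- to 43.9-fold on the log2(FPKM + 1) scale. The groups overlapped for none of the 9 as deposited, where 67.8% of all genes tested were higher without overlap, and 8 did not overlap when scaled, where 21.5% did not. The 9 genes made up 0.879% to 1.47% of all nuclear protein-coding FPKM in saline mice and 2.32% to 3.30% in bleomycin mice. Since the nuclear protein-coding sum was higher after bleomycin, the scaled values separate the genes into those that gained share (*Lgals1*, *Anxa2*, *S100a4*, *Anxa1*, *Anxa5*, *S100a10* and *Anxa3*) and those that gained little (*S100a11* and *S100a6*). With limma at an adjusted p-value under 0.05, 9 of the 9 genes passed as deposited, where 70.4% of 12523 genes tested passed as higher, and 7 passed on the scaled values, where 23.9% did. These counts are descriptions, since the genes were chosen with this comparison in view. The median difference of the 9 genes was 4.92 (log2) as deposited and 1.98 scaled, and that of all genes tested was 1.76 and -0.02.

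**Figure D1:**
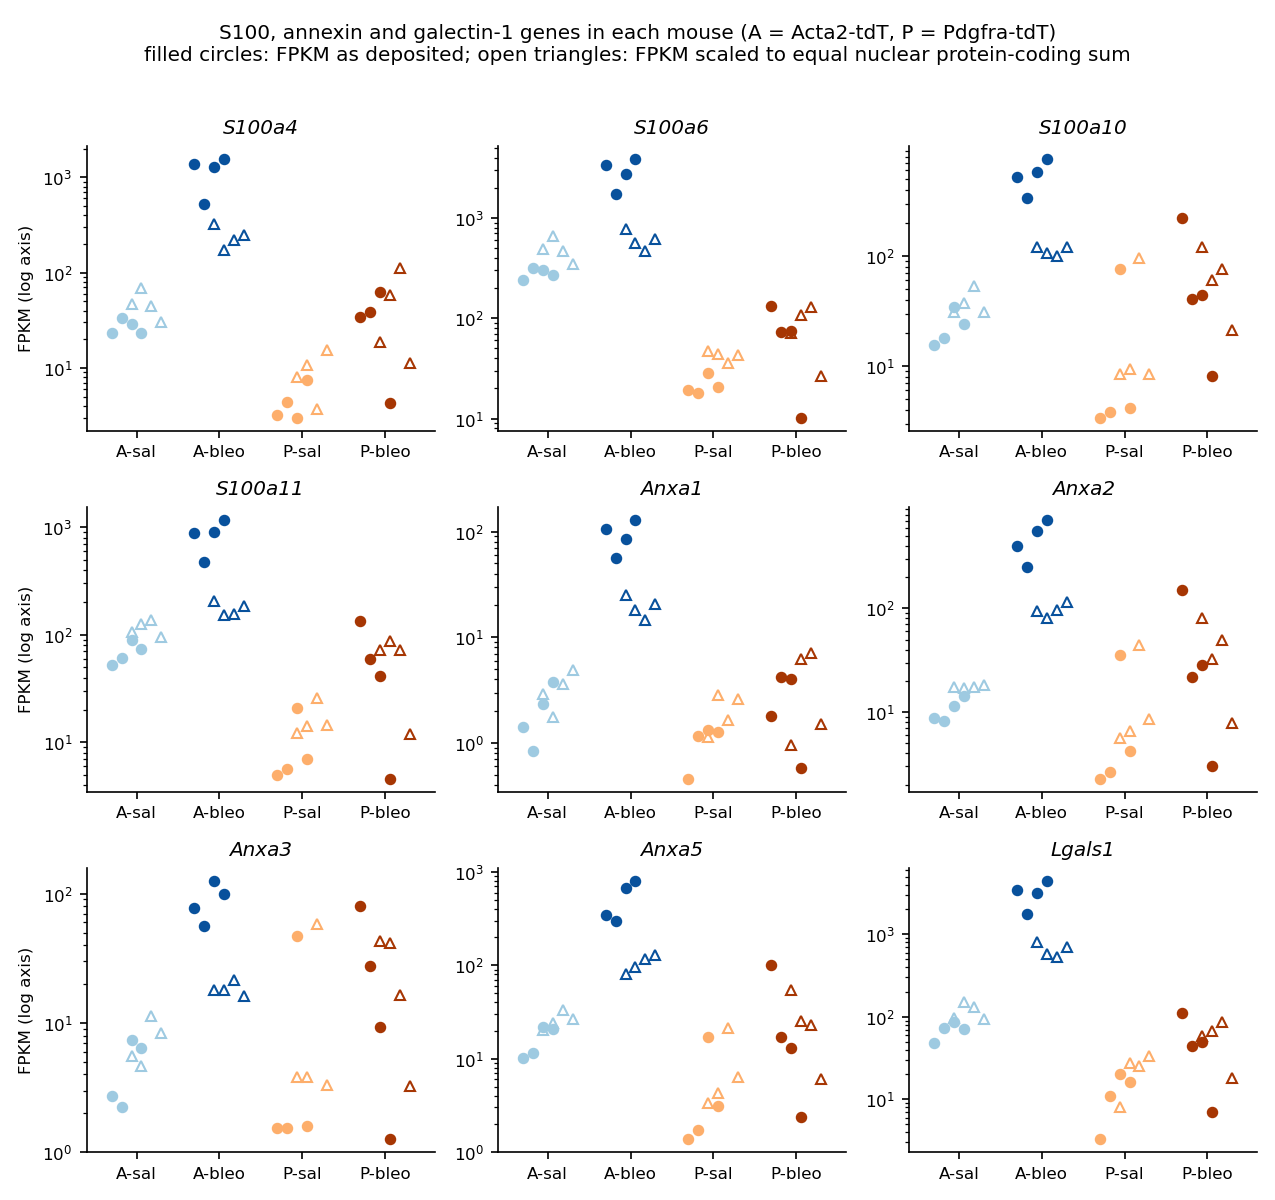
FPKM of the 9 genes in each mouse on a log axis, as deposited (filled circles) and scaled to the same nuclear protein-coding sum (open triangles), in the 4 groups of 4 mice. As deposited, *Acta2-tdT* bleomycin mice lie above all *Acta2-tdT* saline mice for every gene, while the scaled *S100a6* of the 2 groups overlaps, from 347 to 659 and from 464 to 784 FPKM.

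*Lgals1* showed the largest difference on the log2(FPKM + 1) scale, though with a pseudocount of 0.1 *Anxa1* did (5.55 against 5.47 as deposited and 2.60 against 2.48 scaled). The level of *Lgals1* level was 47.6, 73.2, 86.2 and 72.0 FPKM in the *Acta2-tdT* saline mice and 3444, 1780.2, 3142 and 4411 FPKM in the bleomycin mice as deposited. Scaled, it was 96.1, 153, 132 and 92.7 FPKM against 805, 573, 537 and 709 FPKM. Every bleomycin mouse was above every saline mouse on both scales, and the lowest bleomycin mouse was still several times the highest saline mouse. The difference was 5.46 ± 0.39 (log2 ± SE, n = 4 and 4) as deposited and 2.47 ± 0.30 scaled. By mean FPKM *Lgals1* moved from rank 47 to rank 10 among 21950 nuclear protein-coding genes.

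Among the S100 genes, the fibroblast marker *S100a4* gained the most. It was listed at 23.1, 33.4, 29.1 and 23.3 FPKM with saline and 1375, 530.0, 1287 and 1548 FPKM with bleomycin, and scaled at 46.7, 69.7, 44.6 and 30.0 FPKM against 322, 171, 219.8 and 249 FPKM. The groups were apart on both scales, by 5.30 ± 0.43 as deposited and 2.33 ± 0.34 scaled (log2 ± SE). *S100a6* of the same cluster, which encodes calcyclin, was already at 240.5, 315, 306 and 269 FPKM with saline, the highest level of the 9 genes and rank 9 among all, and reached 3352, 1743, 2717 and 3847 FPKM with bleomycin. Scaled, *S100a6* was 486, 659, 468 and 347 FPKM against 784, 561, 464 and 618 FPKM. These scaled values overlapped, and the difference of 0.32 ± 0.30 (log2 ± SE) was about its standard error, against 3.31 ± 0.35 as deposited.

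*S100a10*, the partner of annexin A2, was at 15.5, 18.1, 34.7 and 24.3 FPKM with saline and 518, 334, 583 and 759 FPKM with bleomycin as deposited. Scaled, it was 31.2, 37.7, 53.2 and 31.3 FPKM against 121, 107, 99.5 and 122 FPKM, again with all bleomycin mice above. *S100a11*, which lies near it on chromosome 3, was at 52.1, 60.5, 88.8 and 74.0 FPKM against 888, 474, 911 and 1163 FPKM as deposited, and at 105, 126, 136 and 95.3 FPKM against 208, 153, 156 and 187 FPKM scaled. The scaled *S100a11* groups did not overlap, but the difference was small, 0.60 ± 0.27 (log2 ± SE), and did not pass, whereas that of *S100a10* was 1.56 ± 0.28.

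The annexins started lower. *Anxa2*, a membrane and plasminogen-binding protein, was at 8.69, 8.24, 11.4 and 14.2 FPKM in saline mice and 399, 251, 559.7 and 709 FPKM in bleomycin mice as deposited. Scaled, the saline mice were at 17.2 to 18.3 FPKM and the bleomycin mice at 93.4, 80.9, 95.6 and 114 FPKM, a difference of 2.37 ± 0.24 (log2 ± SE). The saline mice differed little for *Anxa2* once scaled, and all bleomycin mice were above them.

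*Anxa1*, a mediator of the resolution of inflammation through formyl peptide receptors, was near the floor with saline (1.43, 0.841, 2.36 and 3.78 FPKM) and rose to 106, 56.0, 84.9 and 128 FPKM as deposited, and from 1.76 to 4.86 FPKM to 14.5 to 24.9 FPKM scaled. *Anxa5*, known for binding phosphatidylserine, was at 10.1, 11.6, 21.8 and 20.7 FPKM against 347, 299.9, 681 and 800.3 FPKM as deposited, and at 20.3 to 33.3 FPKM against 81.3 to 129 FPKM scaled. *Anxa3* was at 2.73, 2.24, 7.37 and 6.46 FPKM against 76.9, 56.2, 125 and 99.9 FPKM as deposited, and at 4.68 to 11.3 FPKM against 16.05 to 21.3 FPKM scaled. For all 3 genes the groups did not overlap on either scale, and the scaled differences were 2.29 ± 0.29 for *Anxa1*, 1.98 ± 0.28 for *Anxa5* and 1.26 ± 0.29 for *Anxa3* (log2 ± SE).

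Markers of other cells also moved after bleomycin, and their part in these differences was not tested. As deposited, 10 of 10 macrophage and monocyte markers rose in *Acta2-tdT* cells, and scaled 4 of 10 did (*Cd68*, *Lyz2*, *Ctss* and *Csf1r*), against 70.4% and 23.9% of all genes tested that rose, with scaled sums of 207 to 427 FPKM with saline and 418 to 1251 FPKM with bleomycin. Of the 5 neutrophil markers tested, 5 rose as deposited and 4 fell when scaled, where 32.5% of all genes tested fell, and their scaled sums were 1541 to 2270 FPKM with saline and 197 to 1336 FPKM with bleomycin. The 3 endothelial and 3 epithelial markers tested all rose as deposited, whereas 1 endothelial marker fell and 0 epithelial markers passed when scaled, with 0 of the latter at an unadjusted p-value under 0.05. Fibroblast markers summed to 30.3 to 45.4 FPKM and 303 to 464 FPKM scaled, and 5 of the 5 tested rose, the collagen genes *Col1a1*, *Col1a2* and *Col3a1* among them. Of 6 smooth muscle markers 5 rose as deposited, and scaled 2 rose (*Des* and *Actg2*) and 1 fell (*Myh11*).

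**Figure D2:**
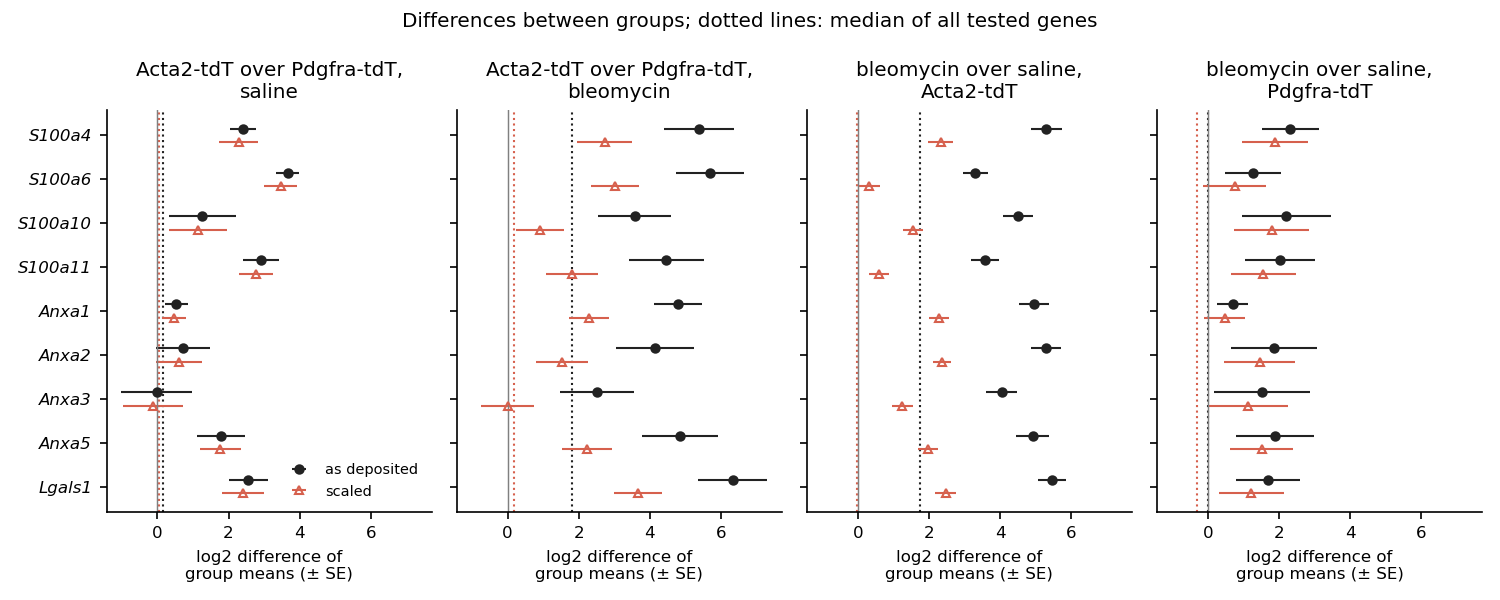
Difference between groups on the log2(FPKM + 1) scale with its standard error for the 9 genes, as deposited (black) and scaled (red), in 4 comparisons of 4 against 4 mice, where dotted lines mark the median of all genes tested. After bleomycin in *Acta2-tdT* cells all differences as deposited lie at 3.31 or higher, and the scaled ones run from 0.32 for *S100a6* to 2.47 for *Lgals1*.

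Because 2 genes of a mouse share its library, their ratio does not depend on the scaling. With saline *S100a6* was 10.4, 9.45, 10.5 and 11.6 times *S100a4* in the *Acta2-tdT* mice, and with bleomycin 2.44, 3.29, 2.11 and 2.49 times. *Lgals1* was 0.198, 0.232, 0.282 and 0.267 of *S100a6* with saline and 1.03, 1.02, 1.16 and 1.15 with bleomycin, so that *Lgals1* passed *S100a6* in all 4 bleomycin mice and in no *Acta2-tdT* saline mouse. *S100a10* over *S100a11* went from 0.296 to 0.391 in saline mice to 0.583 to 0.704 in bleomycin mice, and *Anxa2* over its partner *S100a10* from 0.330 to 0.586 to 0.753 to 0.960. These 4 ratios did not overlap between the *Acta2-tdT* groups. Of 3 other ratios computed, *Anxa2* over *Anxa5* overlapped (0.526 to 0.864 and 0.821 to 1.15), whereas *Anxa3* over *Anxa2* and *S100a6* over *S100a10* did not. The ratios were chosen after the levels were seen and carry no test.

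**Figure D3:**
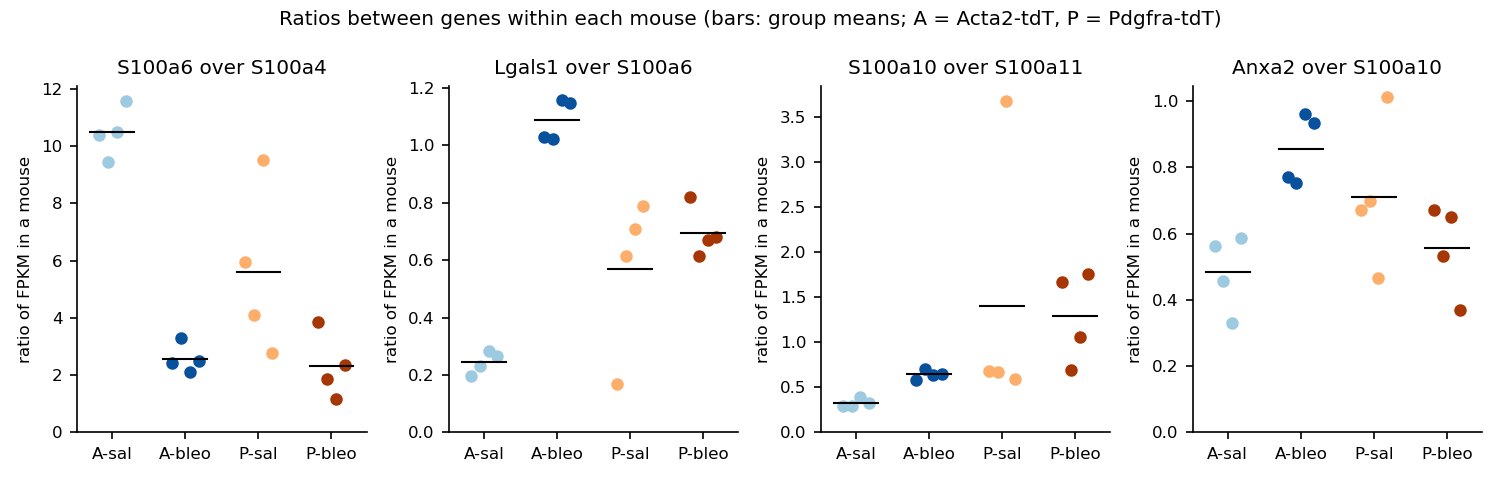
Ratio of the FPKM of 2 genes within each mouse (points, linear axis from 0) in the 4 groups, with bars at the group means. In *Acta2-tdT* cells *S100a6* falls from 9.45 to 11.6 times *S100a4* with saline to 2.11 to 3.29 times with bleomycin, and *Lgals1* over *S100a6* rises to 1.02 to 1.16.

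The order of the levels therefore changed within *Acta2-tdT* cells. With saline it ran *S100a6* (283 ± 34.3 FPKM, mean ± SD, n = 4), *Lgals1* (69.7 ± 16.1), *S100a11* (68.8 ± 16.1), *S100a4* (27.2 ± 4.95), *S100a10* (23.1 ± 8.56), *Anxa5* (16.03 ± 6.05), *Anxa2* (10.6 ± 2.77), *Anxa3* (4.70 ± 2.59) and *Anxa1* (2.101 ± 1.28). *Lgals1* and *S100a11* did not differ beyond their spread, nor did *S100a4* and *S100a10*, whereas every other neighbor was lower in 4 of 4 mice. With bleomycin the order was *Lgals1*, *S100a6*, *S100a4*, *S100a11*, *S100a10*, *Anxa5*, *Anxa2*, *Anxa1* and *Anxa3*. Here *Anxa5* was apart from neither *S100a10* nor *Anxa2*, although *S100a10* was above *Anxa2* in 4 of 4 mice, and *Anxa1* and *Anxa3* were not apart.

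In *Pdgfra-tdT* cells bleomycin left the groups overlapping for all 9 genes on both scales, where 1.43% of all genes tested as deposited and 1.31% scaled were higher without overlap. The differences were positive for each gene, from 0.70 (*Anxa1*) to 2.32 (*S100a4*) as deposited and from 0.47 to 1.90 scaled, with standard errors of 0.43 to 1.35 and 0.58 to 1.11. With limma 0 of the 9 passed the adjusted threshold on either scale, against 0.0275% of 7275 genes called higher on both, and 1 gene (*S100a4*) had an unadjusted p-value under 0.05 as deposited and 0 did scaled. A difference that misses the threshold does not show that the genes were level. Without bleomycin mouse 8, 1 gene passed as deposited, where 1.07% of all genes were called in either direction. With sample quality weights 4 passed as deposited and 7 scaled, where 7.53% and 41.2% of all genes were called. The 9 genes made up 0.132% to 0.419% of nuclear protein-coding FPKM with saline and 0.145% to 0.772% with bleomycin.

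Bleomycin mouse 8 was low for each of the genes. *S100a4* was at 3.22, 4.37, 3.003 and 7.47 FPKM with saline and 34.6, 38.8, 63.2 and 4.31 FPKM with bleomycin as deposited. *S100a6* was at 19.2, 18.0, 28.6 and 20.8 FPKM against 134, 72.7, 74.8 and 10.2 FPKM, and *Lgals1* at 3.26, 11.0, 20.3 and 16.4 FPKM against 109.5, 44.5, 50.04 and 6.94 FPKM. For these 3 genes bleomycin mice 5, 6 and 7 were above every saline mouse and mouse 8 was within or below the saline range. Mouse 8 was the lowest bleomycin mouse for each of the 9 genes as deposited.

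As deposited, *Anxa1* was low in this line, at 0.460, 1.16, 1.33 and 1.27 FPKM with saline and 1.79, 4.16, 4.04 and 0.585 FPKM with bleomycin. *S100a11* was at 4.95, 5.70, 20.8 and 6.97 FPKM with saline and 133, 59.0, 41.4 and 4.61 FPKM with bleomycin. As deposited, bleomycin mice 5, 6 and 7 were above all saline mice for both genes, and mouse 8 was below most of them. Scaled, this held for *S100a11*, but *Anxa1* in bleomycin mouse 5 was at 0.967 FPKM, below the 1.14 to 2.86 FPKM of the saline mice.

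In the other 4 genes the same mouse of each *Pdgfra-tdT* group had the highest level. As deposited, *S100a10* was at 3.39, 3.81, 76.6 and 4.14 FPKM in *Pdgfra-tdT* saline mice and 224, 40.8, 43.9 and 8.10 FPKM in bleomycin mice, and *Anxa3* at 1.54, 1.54, 47.2 and 1.60 FPKM against 79.7, 27.7, 9.33 and 1.26 FPKM. *Anxa2* was at 2.28, 2.66, 35.7 and 4.19 FPKM against 149.9, 21.8, 28.6 and 2.997 FPKM, and *Anxa5* at 1.36, 1.71, 17.2 and 3.09 FPKM against 102, 16.9, 12.95 and 2.35 FPKM. In each of the 4 genes saline mouse 3 and bleomycin mouse 5 were the highest of their group on both scales, and as deposited saline mouse 3 was higher than bleomycin mice 6, 7 and 8. Scaled, saline mouse 3 was below bleomycin mouse 7 for *Anxa2* (44.4 against 50.1 FPKM) and below mice 6 and 7 for *Anxa5* (21.3 against 25.4 and 22.7 FPKM). Bleomycin mice 6 and 7 were above saline mice 1, 2 and 4 for all 4 genes on both scales. Saline mouse 3 and bleomycin mouse 5 are the 2 mice with the high sums of endothelial markers, scaled 415 and 472 FPKM against 9.39 to 134 FPKM in the other *Pdgfra-tdT* mice, and the part of endothelial RNA in the 4 genes was not tested. As deposited *S100a6*, *S100a11* and *Lgals1* were also highest in these 2 mice of their groups, and *S100a11* was highest in saline mouse 3 when scaled too (25.9 FPKM). Scaled, *S100a6* was lowest in mouse 3 among the saline mice (35.6 FPKM) and was not highest in mouse 5 among the bleomycin mice (72.1 FPKM).

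**Figure D4:**
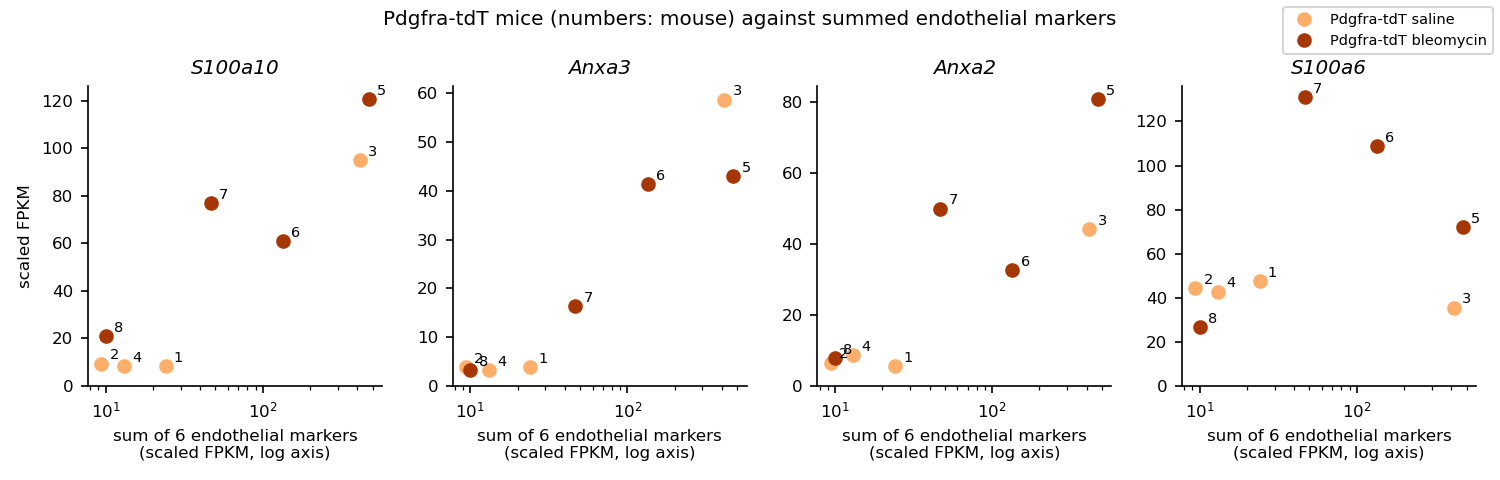
Scaled FPKM of *S100a10*, *Anxa3*, *Anxa2* and *S100a6* in the 8 *Pdgfra-tdT* mice against the scaled sum of 6 endothelial markers on a log axis, with the number of each mouse. Saline mouse 3 and bleomycin mouse 5 lie far right at 415 and 472 FPKM and are high for *S100a10* (95.2 and 121 FPKM), while for *S100a6* (35.6 and 72.1 FPKM) neither is the highest of its group.

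Both mice were also left out of the comparison after bleomycin in *Pdgfra-tdT* cells. As deposited, the differences were then 2.43 for *S100a10*, 1.77 for *Anxa3*, 1.81 for *Anxa2* and 1.67 for *Anxa5* (log2). With both mice they were 2.21, 1.51, 1.87 and 1.88. Without both mice 0 of these genes passed on either scale. The same held for 0 of all 5418 genes tested, so this count is not particular to these genes. Macrophage and monocyte markers of this line summed to 43.6 to 210 FPKM in saline mice and to 1024 to 2825 FPKM in bleomycin mice, scaled and without overlap. With limma 0 of the 4 tested passed, and 4 had an unadjusted p-value under 0.05. *S100a4* is known in macrophages as well, and the part of such RNA in its level was not tested.

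Between the lines with saline, 4 genes were higher in every *Acta2-tdT* mouse than in every *Pdgfra-tdT* mouse on both scales, namely *S100a6*, *S100a11*, *S100a4* and *Lgals1*, where 6.56% of all genes tested as deposited and 7.75% scaled were. As deposited 3 of the 9 passed (*S100a6*, *S100a11* and *S100a4*), where 2.72% of 8153 genes were called higher, and scaled 2 did (*S100a6* and *S100a11*), where 3.13% were. Leaving out 1 mouse gave 1 to 7 as deposited and 0 to 7 scaled, where 0.200% to 29.1% and 0.314% to 38.2% of all genes were called in either direction, the 7 without *Pdgfra-tdT* saline mouse 3. *S100a6* showed the largest difference, 3.66 ± 0.32 as deposited and 3.46 ± 0.45 scaled (log2 ± SE). It was followed by *S100a11* (2.91 ± 0.50 and 2.77 ± 0.48), *Lgals1* (2.56 ± 0.56 and 2.41 ± 0.58) and *S100a4* (2.41 ± 0.37 and 2.29 ± 0.55).

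The other 5 genes overlapped between the lines with saline. *S100a10* differed by 1.27 ± 0.94 as deposited, *Anxa2* by 0.72 ± 0.76, *Anxa3* by -0.03 ± 0.99, *Anxa5* by 1.79 ± 0.68 and *Anxa1* by 0.53 ± 0.33 (log2 ± SE). Without *Pdgfra-tdT* saline mouse 3 the differences were 2.27 for *S100a10*, 1.52 for *Anxa2*, 1.03 for *Anxa3* and 2.45 for *Anxa5*, and 7 of the 9 genes passed on both scales, where 29.1% of all genes as deposited and 38.2% scaled were called in either direction. The lines also differed in their markers with saline. On both scales 6 of 6 smooth muscle markers and 3 of the 5 tested neutrophil markers (*S100a8*, *S100a9* and *Retnlg*) were higher in *Acta2-tdT* cells. So was 1 of the 5 tested macrophage and monocyte markers (*Fcer1g*), and 1 of the 5 tested fibroblast markers (*Pdgfra*) was lower. The part of these markers in the differences was not tested.

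With bleomycin the distance between the lines was larger as deposited. All 9 genes passed as higher in *Acta2-tdT* cells, where 71.0% of 11995 genes were called higher, with differences from 2.51 ± 1.04 for *Anxa3* to 6.33 ± 0.96 for *Lgals1* (log2 ± SE). The groups did not overlap for 8 genes as deposited, where 56.8% of all genes were higher without overlap, and for 7 scaled, where 18.9% were. Scaled, 5 passed, where 15.6% of genes did, with 3 to 6 after leaving out 1 mouse, where 19.5% to 50.7% of all genes were called in either direction. They were *Lgals1* (3.66 ± 0.68), *S100a6* (3.02 ± 0.69), *S100a4* (2.73 ± 0.78), *Anxa1* (2.29 ± 0.55) and *Anxa5* (2.23 ± 0.70).

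*Anxa3* showed no direction between the lines with bleomycin once scaled, at 18.0, 18.1, 21.3 and 16.05 FPKM in *Acta2-tdT* and 43.0, 41.4, 16.3 and 3.28 FPKM in *Pdgfra-tdT* mice. The *Pdgfra-tdT* values enclosed the *Acta2-tdT* values, and the difference was -0.00 ± 0.74 (log2 ± SE). *S100a10* overlapped too, since *Pdgfra-tdT* mouse 5 reached 121 FPKM against 99.5 to 122 FPKM in *Acta2-tdT* mice. *S100a11* and *Anxa2* did not overlap but did not pass when scaled, with differences of 1.81 ± 0.73 and 1.53 ± 0.74. In the same comparison, scaled, 6 of 6 smooth muscle markers were higher in *Acta2-tdT* cells, where 15.6% of all genes were. So were 3 of the 5 tested neutrophil markers and 4 of the 5 tested fibroblast markers. Of the 4 tested endothelial markers 3 (*Pecam1*, *Cdh5* and *Cldn5*) were lower, where 17.7% of all genes were. Of 10 macrophage and monocyte markers 1 was higher (*Csf1r*) and 1 lower (*Lyz2*). Scaled sums of these 10 were 418 to 1251 FPKM in *Acta2-tdT* and 1024 to 2825 FPKM in *Pdgfra-tdT* mice. The part of all these markers in the differences of the 9 genes was not tested.

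The difference between the lines in the response to bleomycin was fitted as an interaction over all 16 mice. As deposited it passed for 3 of the 9 genes, *Anxa1* (4.26 ± 0.64), *Lgals1* (3.77 ± 1.05) and *S100a4* (2.98 ± 0.98, log2 ± SE), where 36.6% of 16605 genes passed as higher. It passed for 6 without *Pdgfra-tdT* bleomycin mouse 5 and for 7 without that mouse and saline mouse 3, where 56.8% and 56.3% of all genes were called in either direction. Scaled, 0 passed, where 1.24% of genes did, and 1 gene (*Anxa1*, 1.82 ± 0.66) had an unadjusted p-value under 0.05. The comparisons within and between the lines share their mice, so they are not independent of each other.

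Across the 16 mice, *S100a10* and *Anxa2* had the highest correlation of all pairs (Pearson r = 0.95 on log2 of scaled FPKM + 1), and *S100a6* and *Anxa3* the lowest (r = 0.12). The proteins of the first pair form a complex, but high r was not particular to partners. *S100a4* with *Lgals1* and *Anxa2* with *Anxa5* each had r = 0.93. The partners *S100a11* and *Anxa1* had r = 0.69, and *S100a6* with the annexins 0.12 to 0.75. In *Pdgfra-tdT* mice *S100a10* and *Anxa2* were both highest in saline mouse 3 and bleomycin mouse 5 of their groups. *Anxa3* was least like the mean of the other 8 genes (r = 0.49) and *Anxa5* most (r = 0.96). Among the genes outside the 9 most like their mean were *Tceal8* (r = 0.98), *Lmna* (0.97), *Yif1a* (0.97) and *H2afz* (0.96), of 10355 genes searched. *Lmna*, which encodes the nuclear lamins A and C, was at 26.3 and 152 FPKM scaled in *Acta2-tdT* saline and bleomycin mice (means, n = 4) and at 8.20 and 33.7 FPKM in *Pdgfra-tdT* mice. The mice form 4 groups, so these correlations describe differences between groups as much as between mice, and carry no test.

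Of 28 other S100, annexin and galectin genes listed, 27 were in the data and 13 were tested after bleomycin in *Acta2-tdT* cells, where 13 rose as deposited, and 8 rose and 2 fell when scaled, against 70.4% and 23.9% of all genes tested that rose and 32.5% that fell when scaled. The 8 include *S100b*, at 0.437 to 0.741 FPKM with saline and 6.29 to 20.0 FPKM with bleomycin. *S100b* was tested only because it was high in the bleomycin mice, so its rise is no support. Those that fell were *S100a8* and *S100a9*, the subunits of the neutrophil protein calprotectin. *S100a8* went from 1073 ± 200.1 to 410.5 ± 316 FPKM scaled (mean ± SD, n = 4 and 4), a log2 difference of -1.72 ± 0.55 (SE, limma adjusted p = 0.023), although as deposited it rose by 1.27 ± 0.49 (adjusted p = 0.033), so the direction depends on the scale. *S100a9* likewise differed by -1.63 ± 0.59 scaled (limma adjusted p = 0.040) and 1.35 ± 0.53 as deposited (adjusted p = 0.035).

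Among the risers on both scales were *Lgals3*, a galectin of macrophages and fibroblasts (1.28 ± 0.34 scaled, limma adjusted p = 0.010), *Lgals9* (1.37 ± 0.26, adjusted p = 0.0015), *S100a16* (1.23 ± 0.35, adjusted p = 0.014), *Anxa6* (1.03 ± 0.25, adjusted p = 0.0062) and *Anxa4* (1.01 ± 0.28, adjusted p = 0.012). *S100a1*, a regulator of calcium handling in muscle, rose as deposited but had a scaled difference of 0.10 ± 0.35 (limma adjusted p = 0.81). In *Pdgfra-tdT* cells 0 of 9 of these genes passed, where 0.0275% of all genes tested were called higher on both scales. Of the 9, 3 as deposited and 2 scaled had an unadjusted p-value under 0.05. *Lgals3* was at 0.544 to 3.22 FPKM with saline and 10.95 to 105 FPKM with bleomycin there, without overlap, and differed by 4.15 ± 0.75 as deposited (limma adjusted p = 0.27) and 3.88 ± 0.84 scaled (adjusted p = 0.31). Between the lines with saline 2 of 11 were higher in *Acta2-tdT* cells on both scales, again *S100a8* and *S100a9*, against 2.72% and 3.13% of all genes. With bleomycin 10 of 13 were higher as deposited and 5 scaled, against 71.0% and 15.6% of all genes. Both counts include *S100b*, which was at no more than 0.542 FPKM in *Pdgfra-tdT* bleomycin mice and was tested through the *Acta2-tdT* mice alone. The medians of the family genes tested after bleomycin in *Acta2-tdT* cells were 3.11 (log2) as deposited and 0.84 scaled. *S100a3* and *S100a5*, which flank *S100a4* in the S100 cluster, were at means of 0.615 and 0.108 FPKM in *Acta2-tdT* saline mice and 0.245 and 0.320 FPKM in bleomycin mice, too low to be tested.

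Partners and receptors of the 9 proteins were listed too, 16 in all. After bleomycin in *Acta2-tdT* cells 13 were tested, of which 12 rose as deposited, and scaled 5 rose (*Plat*, *Plau*, *Cacybp*, *Capn2* and *Lgals3bp*) and 3 fell (*Tlr4*, *Fpr1* and *Fpr2*), against the same 70.4% and 23.9% of all genes that rose and 32.5% that fell when scaled. *Plau* was at 0.0782 to 0.204 FPKM with saline and 2.54 to 7.73 FPKM with bleomycin. It was tested only because it was high in the bleomycin mice, so its rise is no support. *Plat*, which encodes the tissue plasminogen activator that annexin A2 and S100A10 bind, rose from 0.994 ± 0.257 to 50.7 ± 23.9 FPKM as deposited and from 1.65 ± 0.184 to 9.95 ± 2.49 FPKM scaled (mean ± SD, n = 4). *Lgals3bp*, a galectin-binding glycoprotein, differed by 2.04 ± 0.24 (limma adjusted p = 8.0e-05) and *Plat* by 2.02 ± 0.23 (adjusted p = 5.5e-05) when scaled. *Fpr1* and *Fpr2* encode the receptors of annexin A1 and are leukocyte genes.

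*Ahnak*, a large scaffold protein that binds S100A10 and annexin A2, rose by 3.10 ± 0.41 as deposited (limma adjusted p = 6.1e-05) and had a scaled difference of 0.27 ± 0.27 (adjusted p = 0.42). In *Pdgfra-tdT* cells 0 of 9 partners tested passed with limma, where 0.0275% of all genes tested were called higher on both scales. Of the 9 partners, 0 had an unadjusted p-value under 0.05. With bleomycin 12 of 13 partners were higher in *Acta2-tdT* than in *Pdgfra-tdT* cells as deposited and 3 scaled (*Plat*, *Myh9* and *Capn2*), against 71.0% and 15.6% of all genes, and with saline 0 of 10 were, where 1 had an unadjusted p-value under 0.05. The interaction passed for 7 of 13 partners as deposited, where 36.6% of all genes did as higher. Scaled it passed for 1, where 1.24% did, namely *Plat* (1.84 ± 0.43, limma adjusted p = 0.040), which is named after its value was seen. *Plat* was at no more than 0.574 FPKM in *Pdgfra-tdT* saline and 2.27 FPKM in *Pdgfra-tdT* bleomycin mice, too low to be tested within that line. It met the filter of the interaction through *Acta2-tdT* bleomycin mice (20.0 to 76.6 FPKM), where it was high, so its call is no support.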

How the data were processed

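RNA of sorted tdTomato-positive lung cells was sequenced after SmartSeq2 library preparation, 1 library per mouse. The authors aligned reads with TopHat2 2.1.1 and Bowtie2 and used Cufflinks 2.1.1, and the deposited FPKM, 1 table per mouse, are the values used here. Whether the authors scaled them between mice is not given in the sources used here. The depth of the libraries is not known from FPKM, and no interval that needs counts is given. Cufflinks' own bounds lay within a median of 11.4% and 3.90% of the FPKM of the 9 genes in *Acta2-tdT* saline and bleomycin mice, and 26.2% and 17.4% in *Pdgfra-tdT* mice. 

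FPKM of 49534 rows were summed per gene identifier, and 15 genes that Cufflinks did not mark as OK were left out. limma 3.58.1 (R 4.3.3; lmFit, eBayes with trend) was run on log2(FPKM + 1), on genes with at least 1 FPKM in at least 4 of the mice fitted, with Benjamini-Hochberg adjustment over all genes tested and a threshold of 0.05. A gene could meet the filter of at least 1 FPKM through the 4 mice of 1 group alone, the group where it was high. Fold changes are on the log2(FPKM + 1) scale, which understates those of low genes. The procedure was also run on simulated data, but no outcome is given here, and its error rate in these libraries was not tested. Tables and plots were made with pandas 2.3.3 and matplotlib 3.10.9.

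The 9 genes and all lists were chosen with earlier results of these data known. Of the other family genes and the partners, those past the threshold in any of the 4 comparisons were eligible to be named (26), and the 10 with the highest mean FPKM over the 16 mice were taken. Likeness was read as the 5 genes with the highest Pearson r to the mean of the 9, of which 1 is not reported here. *Plat* and genes given as members of small counts were named after their values were seen. Alternatives were quantile normalization, a pseudocount of 0.1, a filter on a mean FPKM of 5 or none at all, other scalings, sample weights, all 16 mice in 1 fit, the replicate number as a block, and leaving out each mouse. Labels do not say whether mice were littermates, and no 2 mice had identical values.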

Additional observations from a re-analysis of the deposited data

Results flagged for a closer look

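The gap between the extreme mouse and the nearest other mouse was compared with the range of each group of 4 (Dixon's test at its 95% critical value), for 9 genes, 4 groups and both scales, 72 in all. It was passed 12 times, where chance flags about 1 in 20 groups. *Pdgfra-tdT* saline mouse 3 was far above the other 3 for *S100a10* (76.6 FPKM against 3.39 to 4.14, ratio 0.990, and scaled 0.989), *Anxa3* (47.2 against 1.54 to 1.60 FPKM, 0.999 and 0.990), *Anxa2* (35.7 against 2.28 to 4.19 FPKM, 0.943 and 0.923), *Anxa5* (17.2 against 1.36 to 3.09 FPKM, 0.890 and 0.833) and *S100a11* (20.8 against 4.95 to 6.97 FPKM, 0.873 and 0.847). *Pdgfra-tdT* bleomycin mouse 5 was far above its group as deposited for *S100a10* (224 against 8.10 to 43.9 FPKM, ratio 0.834) and *Anxa5* (102 against 2.35 to 16.9 FPKM, ratio 0.854), but not when scaled. The 12 flags fall in 2 mice and in genes that move together there, so they are not independent.

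The interaction of line and bleomycin as deposited passed the threshold for *Anxa1* (4.26, log2), *Lgals1* (3.77) and *S100a4* (2.98), where 36.6% of all genes tested passed as higher, and for none of the 9 genes when scaled. These genes were chosen with their levels known, so the values are descriptions.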

How the results depend on the processing

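After bleomycin in *Acta2-tdT* cells the number of the 9 genes called stayed within 1.5 times 9 (as deposited) and 7 (scaled) under every alternative run. In these runs 36.4% to 91.2% of all genes as deposited and 38.9% to 60.9% scaled were called in either direction. It was 9 and 7 without any 1 mouse, where 79.1% to 88.1% and 49.0% to 59.7% of all genes were called. Between the lines with saline the numbers called were 3 as deposited and 2 scaled, and became 1 and 1 with no filter (where 0.135% and 0.291% of all genes were called in either direction), 7 and 7 with sample quality weights (33.3% and 45.1%), 1 with all 16 mice in 1 fit (as deposited, 1.55%) and 1 with median-of-ratios size factors (scaled, 1.83%). Leaving out 1 mouse gave 1 to 7 as deposited (0.200% to 29.1% of all genes) and 0 to 7 scaled (0.314% to 38.2%). The 7 came without *Pdgfra-tdT* saline mouse 3, and leaving out any *Acta2-tdT* saline mouse or *Pdgfra-tdT* saline mouse 1 or 2 gave 1 as deposited, while any mouse other than that one gave 0 or 1 scaled. With bleomycin the scaled 5 became 2 with no filter (4.15% of all genes) and 3 to 6 without 1 mouse (19.5% to 50.7%), with 3 without *Acta2-tdT* bleomycin mouse 5, 7 or 8. In *Pdgfra-tdT* cells the 0 became 4 as deposited and 7 scaled with sample quality weights (7.53% and 41.2%), and 0 to 1 without 1 mouse as deposited (1 without bleomycin mouse 8, 1.07%). The interaction as deposited was called for 3, for 1 with quantile normalization (9.58%), 8 with sample quality weights (64.2%), 2 to 6 without 1 mouse (25.1% to 56.8%, the 6 without *Pdgfra-tdT* bleomycin mouse 5) and 7 (56.3%) without both *Pdgfra-tdT* saline mouse 3 and bleomycin mouse 5, an alternative added after seeing the data. With a mean FPKM of at least 5, *Anxa1* was not tested where its mean was lower. The cause of these changes was not tested. Of the recomputed differences of single genes, 1467 moved by less than the spread between replicates, 32 moved by more and 0 that were called turned direction.

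Replicate numbers are shared between the lines. Deviations of same-numbered mice from their group means had r from -0.09 to 0.16 with saline and from -0.31 to 0.07 with bleomycin. With saline 2 of 4 mice as deposited and 1 scaled were most like the mouse of their own number, and with bleomycin 0 were. Whether the numbers stand for a pairing is not known. With the replicate number as a block, 1 gene was called with saline on each scale (0.442% and 1.12% of all genes), and 8 and 4 with bleomycin (78.2% and 27.8%).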
